A study of Homo sapiens with 2 samples.

Results

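The MYC, PVT1 and CCAT1 enhancer locus was analysed in H3K27ac HiChIP data of HCT116, an established human colorectal cancer cell line. HiChIP ligates DNA ends that are close in the nucleus and enriches the fragments that carry a chromatin mark, here acetylation of histone H3 at lysine 27, which marks active promoters and enhancers. The locus was taken as chr8:127900000-129300000 (hg19), and its members were the anchors, the genomic intervals between which contacts were counted, that overlap this window. The window held 195 of the 250223 anchors of the genome. Among them, 1 anchor overlapped the MYC start site ± 2.5 kb, 17 overlapped the CCAT1 region (chr8:128150000-128250000), 6 overlapped the colorectal cancer risk region (chr8:128390000-128430000), 44 overlapped the PVT1 region (chr8:128800000-129120000) and 127 lay elsewhere. The series holds 2 replicates of 1 condition, HCT116 cells in routine culture, and offers no contrast of conditions. The labels do not say whether the replicates came from separate cultures.

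MYC encodes a transcription factor that drives growth and proliferation genes, and it lies in a long stretch with few other coding genes. The enhancers that act on it are spread over this stretch and differ between tissues. CCAT1 is a long noncoding RNA transcribed from a colorectal super-enhancer on the lower-coordinate side of MYC, the risk region between them carries an enhancer bound by the WNT pathway factor TCF7L2, and PVT1 is a long noncoding RNA gene on the higher-coordinate side whose promoter and intronic enhancers also contact MYC. These are descriptions of the locus from earlier knowledge and not results of these data.

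Replicates 1 and 2 held 1885481 and 2131466 counts of paired-end tags in all. The window held 1659 counts between different anchors in replicate 1 and 1925 in replicate 2 (880 and 903 in every 1000000 counts of the library). For the 71 window pairs whose counts sum to 5 or more, the spread between replicates was within sampling noise, with a chi-square per degree of freedom of 1.05 (p = 0.362). Counts of an anchor with itself, which were not used to define the locus, came to 212 and 171 in every 1000000 counts in the window and were lower in replicate 2. The window had 47.7 counts with other anchors per anchor, compared with 28.7 on the rest of 8q, 18.0 on 8p and 20.6 on all autosomes. Copy number of 8q, strength of the mark and frequency of contact cannot be told apart in these values. Same-anchor counts at the promoters of 9 colorectal epithelial genes ranged from 1 to 46, with a median of 2 and the highest values at the keratin genes KRT18, KRT19 and KRT8, and those of 12 genes of other cell types ranged from 1 to 16 with a median of 3. The epithelial markers EPCAM, CDH1 and LGR5 each had a same-anchor count of 1, so these counts did not separate the labelled cell type from others.

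The 3 deepest anchors of the window lay in the CCAT1 region, whose 17 anchors ranged from 24 to 332 counts with other anchors over both replicates. The anchor at chr8:128233765-128239195, in an intron of PCAT1, had 156 counts with other anchors within 2 Mb in replicate 1 and 176 in replicate 2, the highest of the window in both. The next, chr8:128207331-128220514, had 103 and 105, and chr8:128243248-128254007 had 70 and 102. Of the 17 anchors of the region, 13 were above the 90th percentile of all autosomal anchors. So were 4 of 6 in the risk region, 15 of 44 in PVT1 and 61 of 127 elsewhere in the window. The median of 67 counts in the CCAT1 region compares with 30 for PVT1, 53 for the risk region, 35 elsewhere in the window and 17 over the autosomes. The CCAT1 region covered 10.6% of the anchored length of the window and held 21.4% of its same-anchor counts. The deepest anchor had 34 and 24 counts with itself, and chr8:128207331-128220514, the widest of the window at 13.2 kb, had 19 and 13. Depth and same-anchor counts were both high at these anchors but not at every deep one. The anchor chr8:128230536-128232899 had 63 and 77 counts with other anchors and only 4 and 2 with itself.

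The MYC anchor (chr8:128747053-128751046) holds the MYC start site and exons 1 and 2. The start of CASC11, a noncoding gene on the opposite strand, lies outside it but within 2.5 kb. No other anchor lies that close to the CASC11 start, so the counts of these genes cannot be told apart. The MYC anchor had 46 and 56 counts with other anchors in replicates 1 and 2, the 99.6th percentile of autosomal anchors, and ranked 15th in the window. Its counts with itself were only 6 and 1. Among 16083 protein-coding promoters, MYC stood at the 97.7th percentile for counts with other anchors and at the 69.9th for counts with itself. Within the PVT1 region, which ends before the gene does, the deepest anchors lay towards the PVT1 start: chr8:128864471-128873631 had 46 and 72 counts, chr8:128819761-128823293 had 52 and 52, and the promoter anchor, chr8:128804314-128808636, had 46 and 47. Beyond the region, chr8:129185262-129191498, in a PVT1 intron far from the start, was deeper, with 59 and 64 counts. The lowest of the 44 PVT1 anchors had 12 counts over both replicates. In the risk region the counts of the 6 anchors were between 35 and 75 over both replicates, and 2 of the 6 had no count with themselves. Their median same-anchor count was 1, the same as over the autosomes.

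**Figure D1:**
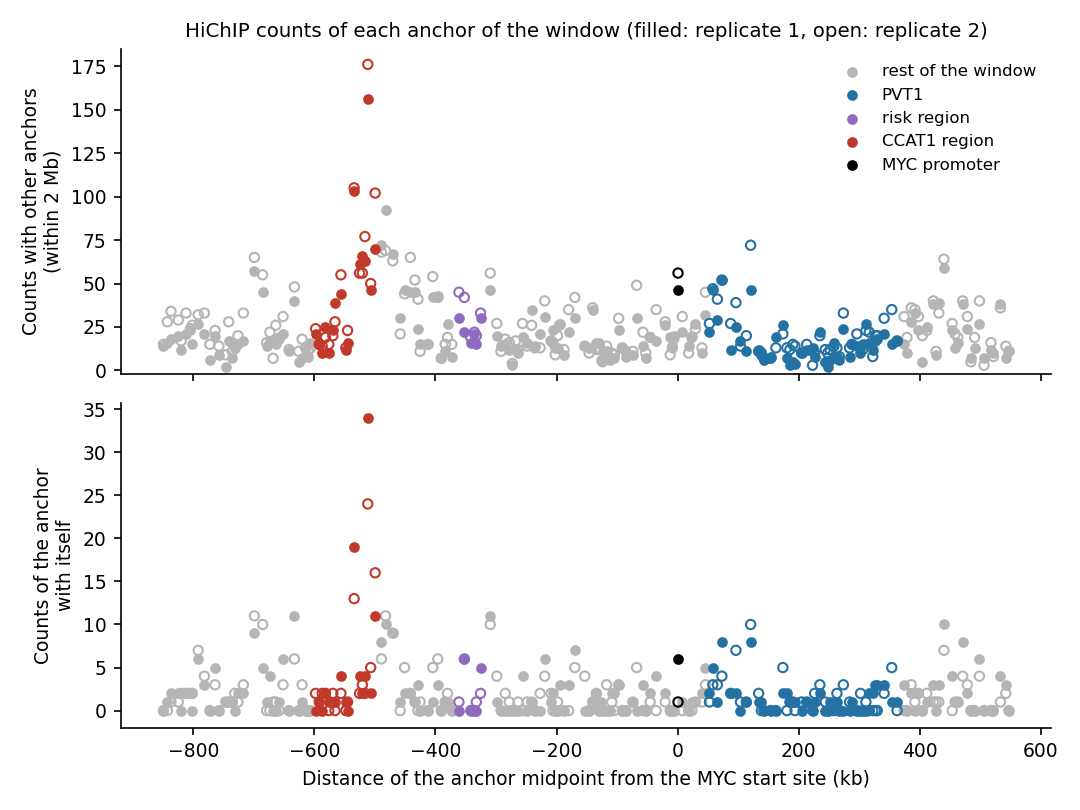
Counts of each of the 195 anchors of the window with other anchors (upper) and with itself (lower), plotted against the distance of the anchor from the MYC start site in kb, with filled points for replicate 1 and open points for replicate 2. The CCAT1 anchors, near -512 kb, reach 156 and 176 counts, while the MYC anchor has 46 and 56 and only 6 and 1 with itself.

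A loop was an anchor pair with at least 1 count. The window held 1237 loops in replicate 1 and 1462 in replicate 2 (1349.5 ± 159, SD, n = 2), and most rested on a single count (80.8% and 82.6%). The 377 loops found in both replicates were 30.5% of those of replicate 1, compared with 19.7% for the whole genome, and 25.8% of those of replicate 2, compared with 17.4%. Of the 2322 loops in either replicate, 71 (3.06%, exact binomial 95% interval 2.40 to 3.84) had a summed count of at least 5, against 1.47% over the genome. All 71 were found in both replicates, as were 27847 of the 28962 such loops of the genome. At 20 kb or more, 18 of 1998 loops reached a summed count of 5 (0.901%, 0.535 to 1.42), against 0.344% over the genome. The shares of loops with such counts rise with depth, which was higher in the window, and the part of depth in them was not tested.

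The loops with the highest counts lay inside the CCAT1 region. The deepest anchor and chr8:128243248-128254007, at 12.1 kb, shared 13 counts in the first replicate and 16 in the second, and the deepest anchor and chr8:128230536-128232899, at 4.76 kb, by 12 and 13. Of the 1998 loops of 20 kb or more, 530 had an end in the CCAT1 region. Among the 18 of them with at least 5 counts, 15 had such an end, and 8 of these 15 ended in the deepest anchor. The strongest of these joined the deepest anchor to chr8:128207331-128220514 at 22.6 kb (8 and 4 counts) and to chr8:128263735-128267787, an anchor over an exon of the noncoding gene ENSG00000287781, at 29.3 kb (4 and 7 counts). The deepest anchor also met anchors in introns of CASC8, a noncoding gene across the risk region, at 70.4 kb (5 and 1 counts) and 77.9 kb (1 and 5 counts), where each replicate gave most of 1 of the loops. None of the 43 loops of the MYC anchor reached a summed count of 5, and 5 of the 633 PVT1 loops did. The share was 3.06% over all loops of the window and 1.47% over the genome. With 43 loops, the absence at MYC cannot be told apart from these shares.

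Counts fall with distance and rise with the depth of both anchors, so an expected count was fitted for each anchor pair from its length and the depths of both anchors, over all 51094602 anchor pairs of the genome within 2 Mb. No pair of the 18915 in the window passed the one-sided Poisson test at an adjusted p of 0.01 (background over the genome 6.85e-05%) or of 0.05 (background 0.000125%), and 415 pairs (2.19%, compared with 1.40% over the genome) had an unadjusted p under 0.05. The share of 0 of 18915 has an exact binomial upper limit of 0.0195%. When the expectation was taken from distance alone, 29 pairs were called (0.153%, 0.103 to 0.220), against a background of 0.0104%. Of these 29, 23 had an end in the CCAT1 region, 13 in its deepest anchor, 2 in the MYC anchor and 1 in PVT1. Among all 2322 loops of the window, 568 had an end in the CCAT1 region, 43 in the MYC anchor and 633 in PVT1. The expectations differ only by the depth of the anchors. Inside the CCAT1 region, 293 counts were 0.817 times those expected from distance and depth (Poisson 95% interval 0.726 to 0.916), and 3.40 times those expected from distance alone. In sum, no excess over distance and depth was measured inside the CCAT1 region. These contacts also make up part of the depth of its anchors, so the ratio cannot show whether contact there is raised. Single pairs inside the region lay on both sides of the expectation, for example at 2.53 (1.26 to 4.52) and 0.643 (0.332 to 1.12).

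The contacts of MYC with the CCAT1 region were above both expectations. They numbered 9 in replicate 1 and 9 in replicate 2 over 500 to 599 kb, where 3.64 were expected from distance and depth in both replicates together, a ratio of 4.94 (Poisson 95% interval 2.93 to 7.81). The ratio was 5.50 (2.51 to 10.4) in replicate 1 and 4.48 (2.05 to 8.51) in replicate 2. Of the 17 CCAT1 anchors, 8 had a count with MYC and 4 had one in both replicates. The anchor chr8:128221372-128224392, at 526 kb from MYC, had 1 and 3 counts, where 0.227 was expected. The anchor chr8:128207331-128220514, at 535 kb, had 2 and 2, where 0.532 was expected. The deepest anchor, at 513 kb, had 2 and 1, where 0.714 was expected. The first 2 of these are also the loops of MYC called against distance alone, each with an adjusted p of 8.9e-04 in that Poisson test over all pairs, and neither passed once depth was included. The ratio was 5.12 (2.87 to 8.44) without the deepest anchor. The first 2 loops tie at 4 counts, and the ratio was 4.10 (2.24 to 6.87) without the 526-kb loop and 4.50 (2.46 to 7.55) without the 535-kb loop.

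The other region pairs stood closer to their expectation. Between the CCAT1 region and PVT1, on either side of MYC, there were 35 and 34 counts, where 41.3 were expected, a ratio of 1.67 (1.30 to 2.11), with 1.85 in replicate 1 and 1.52 in replicate 2. The highest of these loops joined the deepest anchor to chr8:128864471-128873631, in a PVT1 intron, at 633 kb with 3 and 1 counts, where 0.816 was expected. Between the CCAT1 region and the risk region there were 22 and 24 counts, a ratio of 1.55 (1.14 to 2.07), but the ratio was 1.34 (0.895 to 1.92) when anchors were assigned by their midpoint and 1.23 (0.634 to 2.14) with the risk region narrowed to 10 kb to each side. The highest loops of this pair tied at 4 counts. The loop of chr8:128230536-128232899 to chr8:128420478-128425029, at 191 kb, had 2 and 2 counts, where 0.356 was expected. That of the deepest anchor to chr8:128382370-128391855, at 151 kb, had 0 and 4, where 1.63 were expected.

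MYC and PVT1, which are neighbours, had 4 and 7 counts, where 18.1 were expected, a ratio of 0.607 (0.303 to 1.09), and 3 of those counts (2 and 1) lay between the promoter anchors at 57.4 kb, where 1.96 were expected. Against distance alone the direction turned, and this pair had 2.47 times the expected count (1.23 to 4.43). MYC and the risk region had 2 and 1 counts, a ratio of 1.86 (0.384 to 5.44) that was 3.02 in replicate 1 and 1.05 in replicate 2, and that turned to 0.806 when anchors were assigned by their midpoint. The risk region and PVT1 had 3 and 10 counts, a ratio of 0.797 (0.424 to 1.36) that was 0.440 in replicate 1, 1.05 in replicate 2 and 0.486 by midpoint. The intervals of these 3 pairs include 1, so a difference from the expectation was not detectable at this depth. The median ratio of the 6 region pairs was 1.61. No median of like region pairs over the genome was computed, and leaving a pair out of its own depth lowers its expected count. Only 2 of the 6, MYC with CCAT1 and CCAT1 with PVT1, had intervals above 1 in both replicates and under every alternative.

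**Figure D2:**
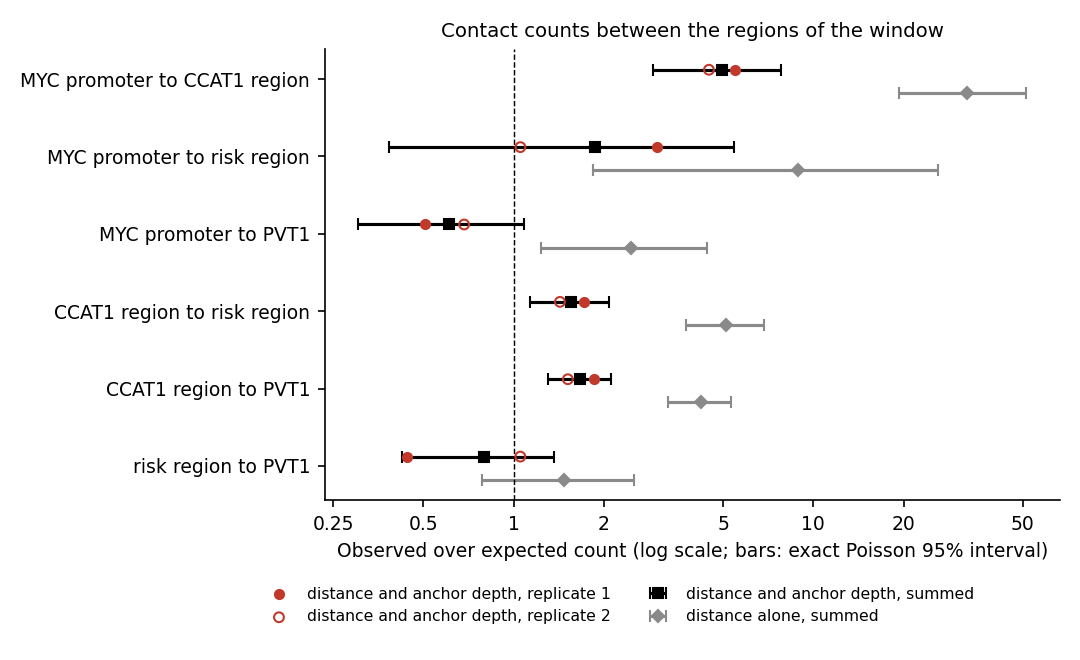
Observed over expected counts for the 6 region pairs on a log axis, with black squares and bars for both replicates summed and their exact Poisson 95% intervals, red points for single replicates, and grey diamonds for the expectation from distance alone. MYC to CCAT1 stands highest at 4.94, and MYC to PVT1 lies at 0.607 with depth and at 2.47 with distance alone.

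Relative to the fit, the counts of MYC were high at long distances on both sides and sparse close by. The fit balances each anchor, so its expected total lies close to its observed total. An excess at some distances therefore goes with a deficit at others, and the ratios of the sides cannot both be high or both be low. The anchor had 53 counts (27 and 26) towards lower coordinates and 49 (19 and 30) towards higher coordinates, so that 52.0% (41.8 to 62.0) lay on the CCAT1 side, and the ratios to expectation were 1.05 (0.785 to 1.37) and 0.989 (0.731 to 1.31). Between the risk region and MYC there were 13 counts (6 and 7), where 32.7 were expected, a ratio of 0.398 (0.212 to 0.680). Between MYC and PVT1 there were 6 (3 and 3), where 17.5 were expected, a ratio of 0.343 (0.126 to 0.746). Against distance alone these sections had ratios of 1.28 (0.679 to 2.18) and 1.39 (0.509 to 3.02), the lowest of the 10 sections into which the 2 Mb to each side were divided. Above the window, more than 550 kb away, MYC had 27 counts (11 and 16), where 9.17 were expected, a ratio of 2.94 (1.94 to 4.28).

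**Figure D3:**
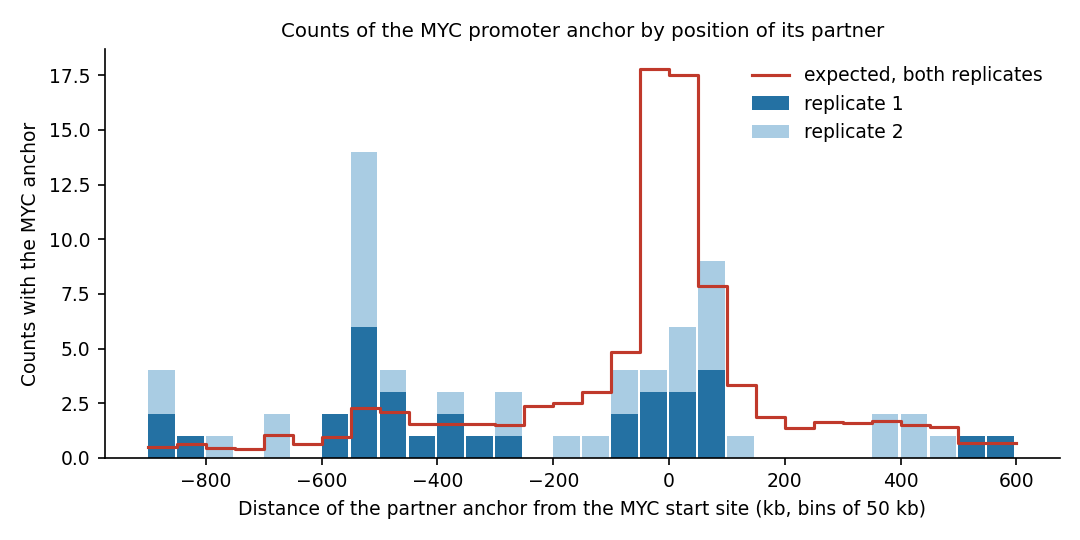
Counts of the MYC anchor in bins of 50 kb by the distance of the partner from the MYC start site, stacked for the 2 replicates, with the expected counts as a red line. The bin from -550 to -500 kb, in the CCAT1 region, holds 6 and 8 counts where 2.28 were expected, while the bins on either side of MYC hold 4 and 6 counts where 17.8 and 17.5 were expected.

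This distance pattern was measured against all 10485 autosomal anchors with at least 0.5 times the counts of MYC. At 500 kb to 2 Mb, MYC had 61 counts, where 22.2 were expected, a ratio of 2.74 (2.10 to 3.52) at the 99.9th percentile of these anchors, whose median was 0.907. Under 100 kb it had 23 counts, where 49.5 were expected, a ratio of 0.465 (0.295 to 0.698) at the 0.567th percentile. Because the fit balances each anchor, the ratios at short and long distance are not independent results. The PVT1 promoter had the same order, with 0.699 under 100 kb and 2.21 (1.58 to 2.99) at 500 kb to 2 Mb, the 99.0th percentile. The deepest CCAT1 anchor had 0.792 and 1.72, the 94.5th percentile at the longer distance. Of the 9 CCAT1 anchors with enough counts, the ratios at 500 kb to 2 Mb ran from 1.17 to 2.24, all above the median of 0.907.

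As shares of its own counts, MYC had 2.94% at under 20 kb, 19.6% at 20 to 100 kb, 17.6% at 100 to 500 kb and 59.8% at 500 kb to 2 Mb. The medians over 3613 protein-coding promoters with at least 0.5 times its counts were 22.9%, 26.3%, 31.5% and 16.0%, and MYC stood at the 99.8th percentile for the longest class. The promoters with the most similar shares were those of PRR16, FANCC and CEP57, whose shares differed from those of MYC by 9.57, 12.7 and 13.7 percentage points summed over the 4 classes and which had 56.7%, 57.7% and 52.9% at 500 kb to 2 Mb.

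**Figure D4:**
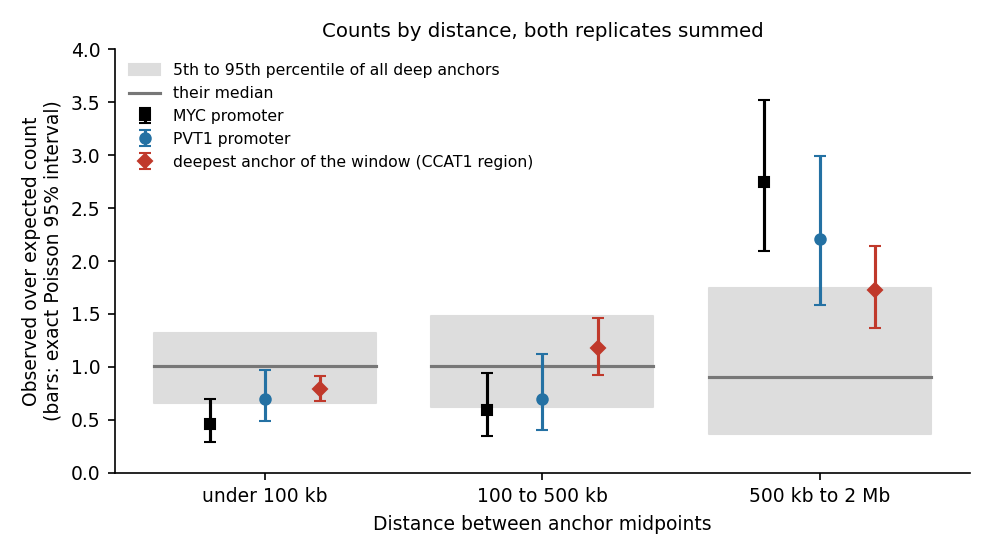
Observed over expected counts of the MYC promoter, the PVT1 promoter and the deepest CCAT1 anchor in 3 distance classes, with exact Poisson 95% intervals. Grey boxes span the 5th to 95th percentile of the 10485 autosomal anchors with at least 0.5 times the counts of MYC, and the MYC promoter lies below the box under 100 kb (0.465) and above it at 500 kb to 2 Mb (2.74).

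Outside the window, the loops of MYC with at least 2 counts were to chr8:127887339-127890979 at 860 kb (1 and 1), chr8:129378929-129384377 at 633 kb (1 and 1), chr8:130294474-130296839 at 1547 kb (0 and 2), chr8:130694177-130700188 at 1948 kb (1 and 1) and chr8:130702987-130704966 at 1955 kb (0 and 2). The 1547-kb and 1948-kb partners overlap CCDC26, a long noncoding RNA gene, and the nearest coding start to the farthest ones is that of GSDMC, a gasdermin gene. The PVT1 promoter met the same anchor, chr8:130694177-130700188, with 1 and 1 counts at 1891 kb. Over the section from 1.9 to 2 Mb above MYC, chosen after the counts had been seen, MYC had 2 and 4 counts where 0.443 was expected and the PVT1 promoter had 2 and 2 where 0.368 was expected. Expected counts for single pairs here were between 0.0178 and 0.230, so 1 or 2 counts decide each ratio.

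Contacts that pass over an anchor were counted for pairs of at most 500 kb with both ends in the window. Relative to expectation they were low at MYC. The MYC anchor was spanned by 65 and 81 counts, where 228 were expected in all, a ratio of 0.640 (0.540 to 0.752) that was 0.626 in replicate 1 and 0.651 in replicate 2. Of the 168 anchors measured, only those at -6.32 kb (0.618) and -8.56 kb (0.634) were lower, and the ratio rose on both sides, to 1.30 at -285 kb and to values under 1 through PVT1. Against distance alone, MYC had the lowest ratio of the 168, 0.925, where the median was 1.66. Over all autosomes, the ratio at MYC with ends anywhere was 0.636 (0.537 to 0.748), the 1.27th percentile of 180429 anchors spanned by at least 0.5 times as many counts, whose median was 1.03. A shallower low of 0.831 (at -525 kb) lay in the CCAT1 region, and the ratio rose to 1.16 at its upper end. Such a low was not particular to the CCAT1 region, because the ratio also fell below 0.831 at coordinates higher than the PVT1 region. The ratio depended on the lengths counted. When all pairs of the window were taken, up to its full 1.4 Mb, 460 counts (199 and 261) crossed MYC, a ratio of 0.943 (0.858 to 1.03).

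**Figure D5:**
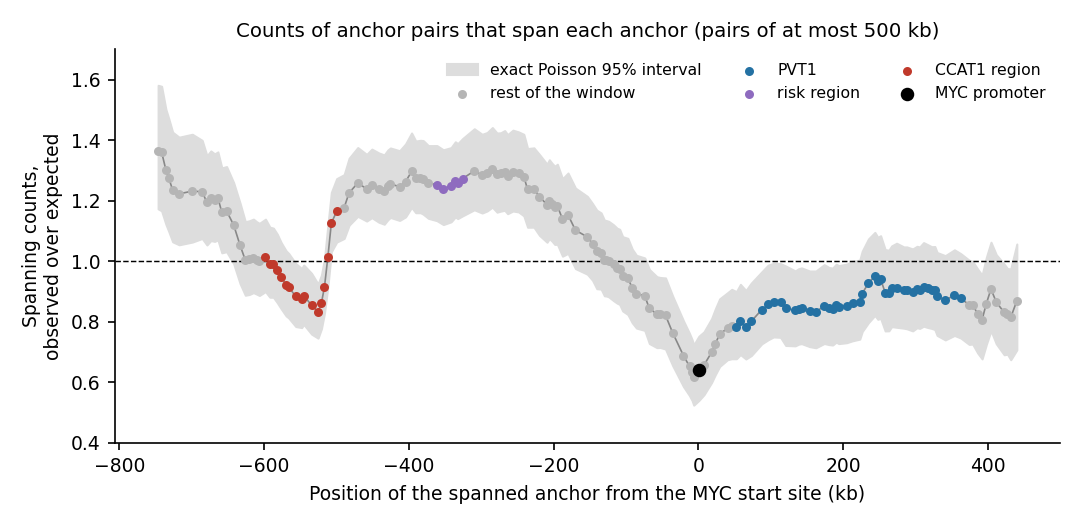
Observed over expected counts of anchor pairs of at most 500 kb that span each of 168 anchors, against the position of the anchor from the MYC start site in kb, with the exact Poisson 95% interval in grey. The curve has its lowest values next to the MYC anchor, at 0.640 on it, and a shallower low of 0.831 in the CCAT1 region. It also falls below 0.831 at coordinates higher than the PVT1 region.

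The CCAT1 region had more of its contacts towards higher coordinates, where MYC lies, but only 18 of these counts were with the MYC anchor. Of the counts that left the CCAT1 region, 36.9% (34.0 to 39.9) went towards lower coordinates, with 36.6% in replicate 1 and 37.2% in replicate 2. The 658 counts towards higher coordinates were 1.44 times the expected number (1.33 to 1.56), and the 385 towards lower coordinates 1.14 times (1.03 to 1.26), with intervals that do not overlap. For the PVT1 promoter the share towards lower coordinates, where MYC lies, was 47.3% (36.9 to 57.9), and 28 of its counts in these sections (15 and 13) stayed in PVT1, 0.793 times the expected number (0.527 to 1.15). Only 2 counts (1 and 1) joined the PVT1 promoter to the CCAT1 region, where 2.71 were expected, whereas MYC, 57.4 kb away, had 18.

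The annotation placed 21 gene starts in the window, of which 2 were protein-coding (MYC and POU5F1B) and 10 were long noncoding RNAs, and 19 had an anchor within 2.5 kb. The start of POU5F1B, a retrogene of the stem cell factor OCT4, had none. Of the 195 anchors of the window, 43 shared a count with the MYC anchor, and whether gene starts differ from other anchors was not tested. Besides MYC and CASC11, which share an anchor, 5 genes had a count between their start and the MYC anchor. These were CASC19, transcribed across the CCAT1 region, with 1 and 2 counts, where 0.342 was expected, PVT1 with 2 and 1, and CASC8, ENSG00000286010 and MIR1208 with 1 count each, all in replicate 2. CCAT2, transcribed within the risk region, had 78 counts with other anchors at its start and none with MYC, where 0.399 was expected, so an absence cannot be told from low depth. PRNCR1 and ENSG00000287781, with 89 and 161 counts, had none with MYC either, where 0.206 and 0.472 were expected.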

How the data were processed

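H3K27ac HiChIP libraries of HCT116 (2 replicates) were digested with MboI. Per the labels and the methods of the study, the authors obtained valid pairs with HiC-Pro and loops with hichipper on hg19; their versions and the source of the anchors are not given in the sources used here. The deposited values are raw counts of paired-end tags per pair of anchors of the same chromosome, not normalized, including counts of an anchor with itself. Anchors of the window were 1.21 to 13.2 kb wide (median 2.94), which limits the resolution. Gene models are those of GENCODE (release 44, GRCh37). CCAT1 was taken by position, not by its start site.

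Expected counts were fitted in each replicate from 60 distance classes up to 2 Mb and from anchor weights balanced in 20 rounds, leaving the pair out of its own depth with an offset of 0.5. Each of the 51094602 pairs had a one-sided Poisson test, and p-values were adjusted over them by the Benjamini-Hochberg method. The script was tested on simulated data. Region ratios carry exact Poisson 95% intervals and shares exact Clopper-Pearson 95% intervals, without p-values. No molecular identifiers were used, so intervals cover counting error only. A region holds an anchor by an overlap of at least 1 bp. Members, regions and gene lists were chosen with earlier results of these data known. Genes named were those of the locus whose start lay in the window and the 3 promoters closest to MYC in their distance shares. Genes at or nearest to a named anchor were also named. Loops to be named were any called, the 10 with the highest counts at 20 kb or more and 3 for each region pair. Only some of these loops are given. Other loops, partners outside the window and locus genes singled out for their counts were chosen after their values were seen. Alternatives were the expectation from distance alone, the pair kept in the depth, distance between inner edges, the minimum count, the assignment of anchors, the width of the risk region and each replicate left out. Tools were scipy 1.17.1, numpy 2.4.6, numba 0.67.0, pandas 2.3.3 and matplotlib 3.10.9 under Python 3.11.15.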

Additional observations from a re-analysis of the deposited data

How the results depend on the processing

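The ratio of MYC to the CCAT1 region was between 4.48 and 5.50 with either replicate left out and kept an interval above 1 in all 8 alternatives that keep depth in the expectation, with its lowest value, 4.10, without the 526-kb loop. CCAT1 to PVT1 did so in all 7, from 1.52 to 1.85 over single replicates, and CCAT1 to the risk region in 6 of 9, from 1.43 to 1.72 over single replicates. That ratio was 1.34 with anchors assigned by midpoint and 1.23 with the risk region narrowed to 10 kb to each side. MYC to the risk region ran from 1.05 to 3.02 over single replicates and was 0.806 by midpoint, and the risk region to PVT1 ran from 0.440 to 1.05 and was 0.486 by midpoint and 0.543 with the narrowed region. With the expectation from distance alone, the ratios were 32.5 for MYC to CCAT1, 8.91 for MYC to the risk region, 2.47 for MYC to PVT1, 5.12 for CCAT1 to the risk region, 4.21 for CCAT1 to PVT1, 1.47 for the risk region to PVT1, 3.78 for MYC towards lower coordinates and 3.97 towards higher coordinates, and 29 loops were called in place of 0. Deep anchors raise all of these by construction. The number of loops, 1349.5 per replicate, was 246 at counts of at least 2, 21 at counts of at least 5 and 2322 with the replicates summed. It was 1237 and 1462 with either replicate left out, and 0 loops were called in either case. Of 69 comparisons of a result with an alternative, 54 moved by less than the spread. Alternatives without the deepest CCAT1 anchor or a loop of the highest count were chosen after seeing the data. No paired analysis was possible because the series holds 1 group. Single pairs rest on 4 counts or fewer at 500 kb and beyond, so no single MYC loop can be placed firmly.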

Other observations

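Counts between anchors more than 2 Mb apart entered no comparison above. With 1 end in the window they came to 1162 in replicate 1 and 1459 in replicate 2, and 96.5% of the partners by count lay on 8q, which holds 74.7% of the anchors of chromosome 8. The anchors of 8p lie farther from the window and had fewer counts each, so these shares are not directly comparable. Of 2589 such pairs, 6 had 3 or more counts. The highest count was 4 (1 and 3), between the deepest CCAT1 anchor and chr8:130715746-130726092, 2.48 Mb away. Of the 5 pairs with 3 counts, 2 joined CCAT1 anchors to that same anchor, 1 joined chr8:128207331-128220514 to chr8:130694177-130700188, and the other two had no end in the CCAT1 region. No expected count was fitted at these distances, and these pairs were not tested.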
